A study of Homo sapiens with 2 samples.

Results

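The genes described here are 8 targets of the transcription factor p53 that act in metabolism, mitochondria and nucleotide supply: TIGAR, SCO2, FDXR, TP53I3, RRM2B, GLS2, CMBL and ALDH4A1. They were chosen by name, and each was found by its Entrez gene ID among the 23033 genes with a value. RNAseq was carried out on 2 libraries of cells labelled T-47D, a breast cancer line of luminal origin, both from cells with 2 µg/ml of cisplatin, a platinum drug that crosslinks DNA. One library came from cells labelled wild type, named control below, and the other from cells with a CRISPR/Cas9 knockout of FZR1, named FZR1 ko, a line grown out of single cells after the guide was introduced by lentivirus. FZR1 is an activator of the ubiquitin ligase APC/C. With 1 library per condition there was no replicate, so no difference below was tested, and each is a difference between these 2 libraries. Values are FPKM, a fragment number divided by transcript length and library depth, as deposited. Changes are log2 ratios of FPKM + 1 in FZR1 ko over FPKM + 1 in control, which understate the change of low genes. Every fold threshold is on this scale, and ratios are set beside those of the 13554 genes that reached 1 FPKM in either library or both, named the genes kept.

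p53 is best known for arrest and apoptosis after DNA damage, but it also switches on genes of energy metabolism and of the defence against oxidants. TIGAR removes the sugar bisphosphate that drives glycolysis and so sends glucose into the pentose phosphate pathway, which makes NADPH. SCO2 delivers copper to cytochrome c oxidase, FDXR hands electrons from NADPH to the mitochondrial ferredoxins, and RRM2B is the p53-inducible small subunit of ribonucleotide reductase, which makes deoxynucleotides for DNA repair. GLS2 turns glutamine into glutamate, ALDH4A1 completes the oxidation of proline to glutamate in mitochondria, TP53I3 (also PIG3) resembles quinone oxidoreductases, and CMBL is a cytosolic hydrolase.

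The identity of the cells limits what the values stand for. Of 17 luminal marker genes, 15 had a value and 8 reached 1 FPKM in a library. KRT8 and KRT18 were high, at 829 and 552 FPKM in control and 998 and 740 FPKM in FZR1 ko. The hormone receptor genes ESR1 (0.04 and 0.13 FPKM) and PGR (0.01 and 0 FPKM) and the luminal factor GATA3 (0.31 and 0.15 FPKM) were near 0, as were KRT19, CDH1, SPDEF and ELF5 (at most 0.69 FPKM in either library), whereas the luminal factor FOXA1 had 5.07 and 4.65 FPKM, TFF1 9.8 and 7.52 FPKM and XBP1 93.4 and 72.6 FPKM. EPCAM was the only one of the 8 luminal markers kept that was at least 2-fold apart, with 3.9 FPKM in control against 11.5 in FZR1 ko (log2 ratio 1.35). Of 14 mesenchymal and basal markers, 10 reached 1 FPKM in a library and the other 4 had at most 0.19 FPKM, with the basal keratins KRT5 and KRT14 among them. Of the 10, 6 were lower and 4 higher in FZR1 ko. VIM had 315 FPKM in control against 295 in FZR1 ko, KRT17 had 103 and 55.8 FPKM (-0.87) and SNAI2 7.05 and 3.86 FPKM (-0.73), while CDH2 (2.97 and 15.3 FPKM, 2.04) and AXL (16.02 and 37.84 FPKM, 1.19) were at least 2-fold higher. The label T-47D is used here as given, since several defining markers of a luminal line were near 0 in both libraries. FZR1 had 12.3 FPKM in control against 10.1 in FZR1 ko (log2 ratio -0.26), a level that does not check the labels, since Cas9 edits need not remove a transcript.

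All 8 genes passed the limit on low values, and they went both ways. SCO2, RRM2B, TIGAR and FDXR were lower in FZR1 ko, and CMBL, GLS2, ALDH4A1 and TP53I3 were higher. Only SCO2 was at least 2-fold lower (1 of 8), where 6.72% of all genes kept were, and 0 of 8 were at least 2-fold higher, where 6.78% of all genes were. At a 1.5-fold threshold 3 of 8 were lower (SCO2, RRM2B and TIGAR) beside 17.6% of all genes, and 1 of 8 (CMBL) was higher beside 18.0%. The median log2 ratio over the 8 genes was -0.089, and over all genes kept it was -0.0048. The summed level of the 8 genes was 157 FPKM in control against 155 in FZR1 ko. In RNA of a whole culture, fewer cells that express a gene and less RNA per cell cannot be told apart.

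**Figure D1:**
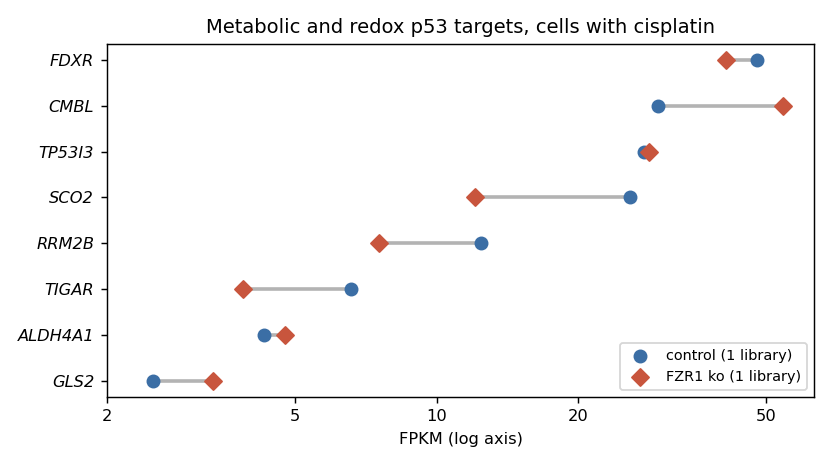
FPKM (log axis) of each of the 8 genes in the control library (circles) and the FZR1 ko library (diamonds), ordered by the level in control. The gap between libraries is widest for SCO2 (25.7 and 12.0 FPKM), goes the other way for CMBL (29.6 and 54.3 FPKM), and nearly closes for TP53I3 (27.6 and 28.3 FPKM).

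FPKM is scaled to transcript length, so levels of different genes can be set side by side. In control the order from high to low was FDXR, CMBL, TP53I3, SCO2, RRM2B, TIGAR, ALDH4A1 and GLS2. In FZR1 ko CMBL stood above FDXR and ALDH4A1 above TIGAR, and the other places were as in control. Without replicates the spread of a level is unknown, so it cannot be said which neighbours differ beyond it. TP53I3 at 27.6 FPKM and SCO2 at 25.7 FPKM lay close together in control. In FZR1 ko they were apart, at 28.3 and 12.0 FPKM. FDXR lay above 85.2% of the genes kept or level with them in control, and GLS2 above or level with 21.2%, so the 8 genes span most of the range of expression.

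The respiratory chain member SCO2 (Entrez gene 9997) had 25.7 FPKM in control against 12.0 in FZR1 ko. The log2 ratio was -1.04, and 6.12% of all genes kept had one as low. This was the lowest ratio of the 8, and it lay just past the 2-fold threshold. With a pseudocount of 5 FPKM in place of 1 it was -0.85, short of that threshold. SCO2 lies on chromosome 22 of hg38 from 50523568 to 50526461 on the minus strand, and its main transcript has 2 exons, of which 1 holds the whole coding sequence. The gene overlaps TYMP on the same strand and NCAPH2 on the opposite strand, and the strand setting of the counting is not given in the sources used here, so reads of the shared stretches are uncertain. TYMP, a thymidine phosphorylase, had 12.7 FPKM in control against 13.9 in FZR1 ko (0.13). NCAPH2, a condensin subunit, had 47.35 and 40.02 FPKM (-0.24). SCO1, the sister copper chaperone of SCO2, had 41.5 FPKM in control against 35.0 in FZR1 ko (-0.24). SCO2 thus made up 38.3% of the summed FPKM of SCO1 and SCO2 in control and 25.6% in FZR1 ko. Of 21 other assembly factors of cytochrome c oxidase, 12 were lower and 9 higher, with a median of -0.11, and 0 were 2-fold apart. COX19, a copper-handling factor, had the lowest ratio (20.1 and 10.7 FPKM, -0.86), and COA1 the highest (40.7 and 73.5 FPKM, 0.84).

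The nucleotide gene RRM2B (Entrez gene 50484) had 12.5 FPKM in control against 7.55 in FZR1 ko. Its log2 ratio was -0.65, and 15.1% of all genes kept had one as low. It lies on chromosome 8 from 102204502 to 102238961 on the minus strand, with 9 exons in its main transcript. RRM2, the small subunit that cells use in S phase, was far more abundant, at 131 FPKM in control against 116 in FZR1 ko (-0.18). RRM2B was 8.68% of the summed small-subunit FPKM in control and 6.12% in FZR1 ko. RRM1, the large subunit shared by both, had 127 and 147 FPKM (0.21). Of the 19 genes of deoxynucleotide supply, 11 were lower and 8 higher, with a median of -0.059. PNP, which breaks down purine nucleosides, was the only one of them at least 2-fold apart (75.8 and 36.1 FPKM, -1.05), and DUT, which hydrolyses dUTP, had 114 and 58.5 FPKM (-0.95). SAMHD1, which degrades dNTPs, had the highest ratio, with 3.99 FPKM in control against 7.78 in FZR1 ko (0.82). TYMS, which makes thymidylate, had 194 FPKM in both libraries.

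The sugar phosphatase gene TIGAR (Entrez gene 57103) had 6.60 FPKM in control against 3.88 in FZR1 ko. The log2 ratio of -0.64 was close to that of RRM2B, and 15.6% of all genes kept had one as low. With a pseudocount of 5 FPKM it was -0.39. TIGAR lies on chromosome 12 from 4307763 to 4360028 on the plus strand, with 6 exons in its main transcript. The span overlaps a protein-coding gene of the same strand (ENSG00000285901) and a pseudogene of the other strand, neither matched to a value here, so reads of the shared stretches are uncertain for TIGAR too. PFKFB3, a kinase that makes the sugar bisphosphate TIGAR removes, had 12.6 FPKM in control against 11.8 in FZR1 ko (-0.087). TIGAR was 34.4% of the sum of that pair in control and 24.7% in FZR1 ko, a difference that depends on the partner chosen. PFKFB2, a relative of PFKFB3, had the lowest ratio of 22 glycolytic genes kept, with 38.3 and 15.4 FPKM (-1.26). That ratio was below the one of TIGAR, so beside PFKFB2 the share of TIGAR would be higher in FZR1 ko, not lower. SLC2A3, a glucose transporter, had the highest ratio, with 2.11 and 6.58 FPKM (1.29). The glycolytic list was divided, with 10 genes lower, 12 higher and a median of 0.056. In the pentose phosphate pathway 7 of 9 genes were higher in FZR1 ko and 2 lower, with a median of 0.22 and 0 genes 2-fold apart. Transketolase (TKT) had 160 FPKM in control against 272 in FZR1 ko (0.76), and PRPS2 was the lowest (63.9 and 51.0 FPKM, -0.32).

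FDXR (Entrez gene 2232), the ferredoxin reductase, was the highest of the 8 in control, at 47.9 FPKM, and had 41.2 FPKM in FZR1 ko. The log2 ratio was -0.21, and 36.6% of all genes kept had one as low, so it lay well inside the bulk of genes. It lies on chromosome 17 from 74862497 to 74873031 on the minus strand, with 12 exons in its main transcript. One of its electron acceptors, FDX1, had 11.9 FPKM in control against 13.4 in FZR1 ko (0.15). FDXR was 80.1% of the sum of FDXR and FDX1 in control and 75.5% in FZR1 ko. The other ferredoxin, FDX2, was more abundant than FDX1, at 35.6 and 38.5 FPKM (0.11), and is not in that sum. These shares thus do not set the reductase against all of its acceptors. Of 19 genes of ferredoxin and iron-sulfur cluster assembly, 6 were lower and 13 higher, with a median of 0.21. IBA57, a late factor of cluster assembly, was 2-fold lower (20.2 and 8.18 FPKM, -1.21). The scaffold ISCU had 84.6 and 55.0 FPKM (-0.61).

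The RefSeq promoter table of GRCh38.p14, which is the hg38 build, held windows for 5 of the 8 genes (TIGAR, FDXR, TP53I3, GLS2 and ALDH4A1). Each window has 250 bases before and 50 bases after a start site. The windows of TIGAR (4320963 to 4321262), TP53I3 (24084785 to 24085084) and GLS2 (56488112 to 56488411) lie wholly inside the GENCODE spans of these genes. Their start sites are thus not the first base of the span. Each window was searched for the p53 consensus, a pair of decamers of 10 bases each with no spacer, which reads the same on both strands. The place with the fewest mismatches was kept, or the one furthest upstream where places were level, as in ALDH4A1 with 2 such places. There were 7 windows, since FDXR and ALDH4A1 have 2 each, and the better window is given, or the one of the longer transcript where both were equal. The closest places are shown because p53 acts through such sites. Capitals mark bases that match the consensus and lower case marks mismatches.

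FDXR: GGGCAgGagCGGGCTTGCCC

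GLS2: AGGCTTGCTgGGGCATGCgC

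TP53I3: AGGgTgGTTCtGctTAGCCC

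ALDH4A1: AtGCATtTCaGGACTTcgCT

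TIGAR: GGcCTcGCCCGGcCcTGagT

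The match in GLS2 had 2 mismatches, and 0.649% of the 35116 windows of all genes held a match with 2 or fewer. It lay on chromosome 12 from 56488113 to 56488132, from base 30 to base 49 after the start. The match in FDXR had 3 mismatches, a number reached in 5.20% of all windows, and lay on chromosome 17 from 74872996 to 74873015, ending 2 bases before the start. Those in TP53I3 and ALDH4A1 had 5 mismatches, a number that 70.5% of all windows reached or bettered, and that in TIGAR had 6, which 97.4% reached or bettered. The genes with the closest matches, GLS2 and FDXR, had log2 ratios of 0.31 and -0.21, and TIGAR, with the poorest, had -0.64. These values cannot relate matches to ratios. SCO2, CMBL and RRM2B, with the largest ratios in size, had no window, and only pairs of decamers without a spacer were scored. A match is a description of letters and not a site shown to be bound, and a window of this length leaves out sites in introns or further away. In the FDXR promoter printed here the match stands in capitals within the bases before the start, on the minus strand of chr17:74872995-74873244.

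FDXR promoter: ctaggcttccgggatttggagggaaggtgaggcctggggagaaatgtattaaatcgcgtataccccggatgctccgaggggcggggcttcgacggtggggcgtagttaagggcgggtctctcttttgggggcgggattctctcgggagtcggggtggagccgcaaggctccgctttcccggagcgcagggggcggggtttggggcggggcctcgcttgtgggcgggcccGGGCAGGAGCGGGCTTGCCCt

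The oxidoreductase gene TP53I3 (Entrez gene 9540) had 27.6 FPKM in control against 28.3 in FZR1 ko. The log2 ratio of 0.034 was the one closest to 0 among the 8. It lies on chromosome 2 from 24077433 to 24085861 on the minus strand, with 5 exons in its main transcript, inside the span of FAM228B on the other strand, which had 0.68 and 0.25 FPKM. CRYZ, a quinone oxidoreductase of the same enzyme family, had 29.6 FPKM in control against 34.7 in FZR1 ko (0.22), and TP53I3 was 48.2% of the pair in control and 44.9% in FZR1 ko. Among 11 quinone and medium-chain reductases, 8 were higher and 3 lower in FZR1 ko, with a median of 0.40, and 0 were 2-fold apart. PTGR2 had the highest ratio (3.10 and 5.62 FPKM, 0.69) and PTGR1 the lowest (60.3 and 41.7 FPKM, -0.52). NQO1, the main quinone reductase of the cytosol, had 78.9 and 67.6 FPKM (-0.22).

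The glutaminase gene GLS2 (Entrez gene 27165) was the lowest of the 8 in both libraries, at 2.5 FPKM in control against 3.35 in FZR1 ko. Its log2 ratio was 0.31, and 30.9% of all genes kept had one as high. With a pseudocount of 5 FPKM it was 0.15. GLS2 lies on chromosome 12 from 56470944 to 56488414 on the minus strand, with 18 exons in its main transcript, and it overlaps a protein-coding gene of the same strand (ENSG00000285528), not matched to a value here, and SPRYD4 on the other strand, which had 9.29 FPKM in control against 10.9 in FZR1 ko (0.20). Of 17 glutamine and glutamate genes kept, 10 were higher and 7 lower, with a median of 0.13. SLC7A5, an importer of large amino acids (128 and 265 FPKM, 1.05), and PSAT1 of serine synthesis (44.2 and 90.1 FPKM, 1.01) were at least 2-fold higher. Glutamine synthetase, GLUL, had the lowest ratio (1.99 and 0.5 FPKM, -0.995) and did not reach the 2-fold threshold on this scale.

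The dehydrogenase gene ALDH4A1 (Entrez gene 8659) had 4.30 FPKM in control against 4.77 in FZR1 ko, for which the log2 ratio was 0.12, or 0.071 on adding 5 FPKM in place of 1. Of all genes kept, 42.2% had a ratio as high. It lies on chromosome 1 from 18871430 to 18902724 on the minus strand, with 15 exons in its main transcript. PRODH, the proline dehydrogenase that acts just before it and is itself a p53 target, had 1.22 FPKM in control against 1.68 in FZR1 ko (0.27), and ALDH4A1 was 77.9% of their sum in control and 74.0% in FZR1 ko. Among 8 genes of proline metabolism kept, 5 were higher and 3 lower, with a median of 0.40 (0.25 with a pseudocount of 5 FPKM). The biosynthetic enzymes ALDH18A1 (19.4 and 31.8 FPKM, 0.69) and PYCR1 (45.5 and 68.3 FPKM, 0.58) had the highest ratios, and OAT, which links ornithine to proline, the lowest (57.8 and 35.1 FPKM, -0.70). Of 6 other mitochondrial aldehyde dehydrogenases, 5 were higher in FZR1 ko, with a median of 0.74. ALDH2, which oxidises acetaldehyde, was 2-fold higher (19.4 and 51.6 FPKM, 1.37), and ALDH6A1 was the lowest (5.90 and 5.03 FPKM, -0.19).

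The hydrolase gene CMBL (Entrez gene 134147) had 29.6 FPKM in control against 54.3 in FZR1 ko. The log2 ratio of 0.86 was the highest of the 8, and 9.76% of all genes kept had one as high. CMBL lies on chromosome 5 from 10275875 to 10307902 on the minus strand, with 6 exons in its main transcript, of which 5 hold coding sequence. BPHL, another small serine hydrolase, had 3.54 FPKM in control against 4.22 in FZR1 ko (0.20), and CMBL was 89.3% of the pair in control and 92.8% in FZR1 ko. The 9 other esterases and small serine hydrolases kept had a median of -0.031, with 5 lower, 4 higher and 0 genes 2-fold apart. They ran from CES2 (32.5 and 21.9 FPKM, -0.55) to ABHD11 (11.1 and 17.3 FPKM, 0.60), so CMBL lay above all of them.

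**Figure D2:**
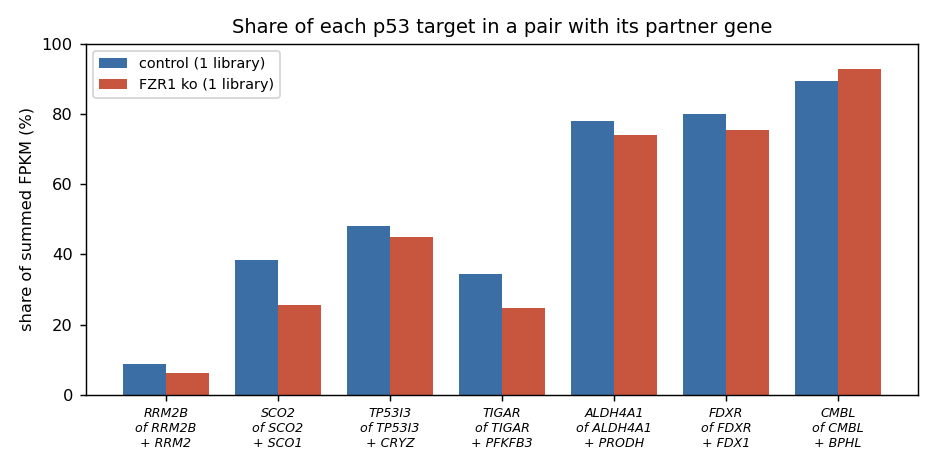
Share of 7 of the 8 genes in the summed FPKM of a pair with its partner gene, in percent, in control and FZR1 ko (1 library each). The share of SCO2 differs most (38.3% and 25.6%), followed by TIGAR with PFKFB3 (34.4% and 24.7%). In these pairs CMBL is the one gene whose share is higher in FZR1 ko (89.3% and 92.8%). With PFKFB2 as its partner the share of TIGAR would be higher in FZR1 ko as well.

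Side by side with p53 targets of other kinds, the 8 genes lay differently in these libraries. Of 31 other p53 targets, mostly of arrest, apoptosis, repair and feedback, 28 were kept, and 27 of these were lower and 1 higher in FZR1 ko, with a median log2 ratio of -0.72. At the 2-fold threshold 10 of the 28 were lower and 0 higher, where 6.72% and 6.78% of all genes kept were. At 1.5-fold 17 of the 28 were lower and 0 higher, where 17.6% and 18.0% of all genes kept were. Of the 8 genes 3 were lower and 1 higher at 1.5-fold. The list was drawn up with earlier results of these data known, so its counts are not independent evidence. CDKN1A, the cyclin kinase inhibitor p21, had 319 FPKM in control against 77.2 in FZR1 ko (-2.03). PMAIP1, the apoptosis inducer NOXA, had the lowest ratio (128 and 26.4 FPKM, -2.23). MDM2, the ubiquitin ligase of p53, had 27.7 and 17.3 FPKM (-0.65), a ratio like those of RRM2B and TIGAR. SESN1, a sestrin, was the one gene higher (6.06 and 6.90 FPKM, 0.16). A further 14 p53 targets of metabolism, of which 13 were kept, had a median of 0.27, with 4 lower and 9 higher. That median was 0.13 with a pseudocount of 5 FPKM and 0.43 with 0.1 FPKM. SOD2, the mitochondrial superoxide dismutase and also a target of NF-kB, had 307 FPKM in control against 128 in FZR1 ko (-1.26) and was the only one at least 2-fold apart on the FPKM + 1 scale. ACAD11 of fatty acid oxidation had the highest ratio (2.89 and 6.26 FPKM, 0.90; 2.17-fold without the added 1), and GPX1, a glutathione peroxidase, had 466 and 677 FPKM (0.54). The difference between these lists was not tested, as the libraries have no replicates.

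**Figure D3:**
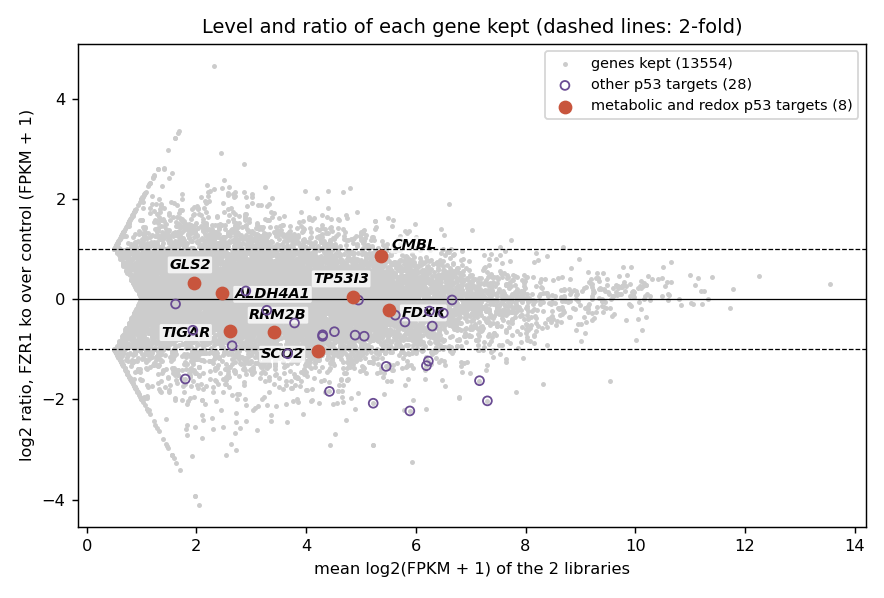
Log2 ratio of FZR1 ko over control (FPKM + 1) against the mean log2(FPKM + 1) of the libraries, for the 13554 genes kept (grey), 28 other p53 targets (open circles) and the 8 metabolic and redox p53 targets (filled circles). The 8 genes lie between -1.04 (SCO2) and 0.86 (CMBL), and 27 of the 28 other p53 targets lie below 0.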

How the data were processed

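Sequencing of total RNA used the BGISEQ-500 platform. Reads were mapped by the authors against hg38 transcripts from UCSC (Bowtie2) and quantified by RSEM, and the deposited values are FPKM per Entrez gene to 2 decimals. The submitters' processing notes also name Trimmomatic 0.36, HISAT2 2.1.0 and Bowtie2 2.2.5, and the Bowtie2 version in the methods of the study is a different one. The annotation release and filters are not given in the sources used here. Of 24663 rows, 1630 had no value and 23033 were used, and 22925 of the gene IDs (99.5%) matched a RefSeq symbol. FPKM carries no counts, so depth is unknown and no interval is given. RSEM divides reads that fit several genes.

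From these values the log2 ratio of FZR1 ko to control was taken after adding 1 FPKM to each, for genes reaching 1 FPKM in either library or both, and the computation was checked on simulated data. Gene spans are from GENCODE 44 on hg38 and promoter windows from RefSeq. Named are the 8 genes, a partner gene of 7 of them, FZR1, MDM2, CDKN1A, overlapping or nearest genes, and the extremes of each list and its genes past 2-fold, apart from a few that are left out here. RRM1, DUT, TYMS, FDX2, ISCU, NQO1, PYCR1, GPX1, ESR1, PGR, GATA3, KRT8, KRT18, KRT19, CDH1, SPDEF, ELF5, FOXA1, TFF1, KRT5, KRT14, SNAI2 and VIM lie outside this rule, and their values were known when they were named. The genes and lists were chosen with earlier results of these data known. With 2 libraries a pattern is 1 ratio, so no gene was named for likeness. Analyses used Python 3.11.15, numpy 2.4.6 and pandas 2.3.3.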

Additional observations from a re-analysis of the deposited data

How the results depend on the processing

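No paired analysis was possible because control and FZR1 ko had 1 library each, and no replicate could be left out. The alternative of protein-coding genes only was chosen after seeing the data. The filters leave the ratio of a gene as it is, a pseudocount cannot turn its direction, and centring and rescaling to TPM shifted the 8 ratios by less than 0.1, so these settings hardly test the directions. The pseudocount moved the size of some ratios. With 5 FPKM, TIGAR had -0.39, SCO2 -0.85, RRM2B -0.48 and GLS2 0.15, and with 0.1 FPKM TIGAR had -0.75. At 5 FPKM and at a 4-fold threshold 0 of 8 genes were lower in place of 1, and at 1.5-fold 3 were lower and 1 higher. Of all genes, 911 were 2-fold lower and 919 higher. At 5 FPKM these numbers were 270 and 183, and at 0.1 FPKM 1358 and 1460.

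The median over all genes, -0.0048, was 0.00053 with FPKM rescaled to TPM and 0.030 with protein-coding genes only. At a pseudocount of 5 FPKM the medians were -0.58 for the other p53 targets, 0.13 for those of metabolism, 0.30 for the reductases, 0.25 for proline and 0.51 for the aldehyde dehydrogenases. At 0.1 FPKM they were 0.43 for the p53 targets of metabolism and 0.50 for proline. With no filter on low values they were 0.27 for proline and 0.040 for the luminal markers (0.20 with the filter). The other 101 of 112 medians moved by less than 0.1, and that over all genes was 0 with no filter, with 1 FPKM required in both libraries and after centring on the median.

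With 1 added to each FPKM, the shares in control and FZR1 ko were 35.9% and 27.6% for TIGAR, 70.5% and 68.3% for ALDH4A1 and 87.1% and 91.4% for CMBL. After rescaling to TPM and adding 1, they were 73.6% and 70.7% for ALDH4A1, 26.3% for TIGAR in FZR1 ko and 88.2% for CMBL in control. No share changed the order of the libraries. The depth is unknown, so its limit on each gene could not be ranked. At equal FPKM a short transcript such as that of SCO2 (984 bases) rests on fewer fragments than a long one.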

Other observations

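The genes next to the 8 p53 targets on the chromosome were looked at as well. RBMS2, which encodes an RNA-binding protein and lies 33405 bases from GLS2, had 4.48 FPKM in control against 9.41 in FZR1 ko (log2 ratio 0.93). LMF2, which lies 15865 bases from SCO2, had 66.0 and 43.6 FPKM (-0.59). The neighbours of CMBL were CCT5, a chaperonin subunit, with 415 and 364 FPKM (-0.19), and MARCHF6, a ubiquitin ligase of the endoplasmic reticulum, with 21.6 and 29.0 FPKM (0.41). SF3B6, a splicing factor next to TP53I3, had 95.4 and 80.2 FPKM (-0.25), and IFFO2, next to ALDH4A1, had 1.66 and 1.89 FPKM (0.12). The genes on either side of TIGAR (CCND2 and FGF23) and of FDXR (GRIN2C and FADS6) were under 1 FPKM in both libraries.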
